A study of Mus musculus with 6 samples.

Results

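The core pluripotency genes described here are 9 genes that maintain or mark undifferentiated mouse cells: *Pou5f1*, *Sox2*, *Nanog*, *Utf1*, *Sall4*, *Lin28a*, *Tdgf1*, *Dppa2* and *Dppa4*. They were chosen by name, and every probe to which the platform annotation used here gave one of these symbols was taken. This gave 18 of the 45281 probes on the array (9 of the 9046 genes named in the annotation). Of these 18, 17 were bright enough to be tested, among 14436 tested probes in all, and each of the 9 genes kept at least 1 tested probe. Only 12582 of the 14436 tested probes carried 1 symbol. Probes without a symbol could not be searched, so further probes of these genes may exist. *Prdm14*-null ES cells (3 samples) were compared with wild-type ES cells (3 samples). Both genotypes have a C57BL/6 background and were grown in 2i, a medium with inhibitors of MEK and glycogen synthase kinase-3, so that all samples carry MEK inhibition. RNA was read on Illumina Mouse WG-6 bead arrays, 1 sample on each. The knockout allele was carried by heterozygous crosses, the ES cells were derived in 2i, and the replicates of a genotype were taken at consecutive passages. Neither the labels nor the methods state whether they represent separate lines. The p-values therefore measure only the spread between these samples, and an effect of the genotype and of the line cannot be told apart.

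As background, OCT4 (encoded by *Pou5f1*) and SOX2 bind DNA side by side and, with the homeodomain factor NANOG, activate each other's genes and much of the ES cell programme. SALL4 is a zinc finger partner of this circuit, and UTF1 is a chromatin-associated factor of undifferentiated cells. LIN28A blocks maturation of the let-7 microRNAs, TDGF1 (Cripto) is the cell-surface co-receptor for NODAL, and DPPA2 and DPPA4 act as a heterodimer on chromatin at early embryonic genes.

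The sequence around the transcription start is shown for the member that differed most between the genotypes, *Utf1*, and for *Nanog*, whose proximal promoter holds the textbook OCT4-SOX2 element. Both are RefSeq sequences of GRCm38.p6 on the + strand, from 250 bases before to 50 bases after the start, *Utf1* at chr7:139943606-139943905 and *Nanog* at chr6:122707315-122707614. Capitals mark GC boxes (GGGCGG) in *Utf1* and, in *Nanog*, a SOX motif (CATTGT) and the octamer part ATGCAAA that lie 1 base apart and read on the opposite strand.
Utf1: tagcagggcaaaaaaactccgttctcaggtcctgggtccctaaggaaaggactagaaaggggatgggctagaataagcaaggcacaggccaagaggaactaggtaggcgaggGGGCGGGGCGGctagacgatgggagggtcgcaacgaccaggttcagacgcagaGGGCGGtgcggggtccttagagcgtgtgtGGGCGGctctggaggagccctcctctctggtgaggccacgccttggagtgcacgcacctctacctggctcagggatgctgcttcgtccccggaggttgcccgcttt
Nanog: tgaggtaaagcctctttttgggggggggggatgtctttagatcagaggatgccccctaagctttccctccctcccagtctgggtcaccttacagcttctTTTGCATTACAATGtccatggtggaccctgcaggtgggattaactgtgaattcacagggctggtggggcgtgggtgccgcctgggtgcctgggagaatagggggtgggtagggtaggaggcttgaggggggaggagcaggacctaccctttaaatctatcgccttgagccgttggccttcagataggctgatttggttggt

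Motifs were searched on both strands. The *Utf1* window held 4 GC boxes, of which the first 2 overlap, and neither the full octamer (ATGCAAAT) nor CATTGT. Among all 32851 promoter entries of the table, 35.7% held a GC box, 12.6% held CATTGT and 1.74% held the full octamer. The OCT4-SOX2 arrangement, in the exact letters marked above, was found in 2 entries. Both are overlapping windows of *Nanog* that hold the same site. Variants of these letters and sequence outside the windows were not searched, so elements elsewhere are not covered. Windows were given for 6 of the 9 members. A match describes the letters in the window and not a bound site.

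The targeted gene followed the labels. Both *Prdm14* probes were above background on 0 of 3 null arrays and on 3 of 3 wild-type arrays, and the brighter probe was at least 6.62-fold lower in null cells (limma, adjusted p = 2.46e-07). Arrays correlated at 0.99 to 0.994 within a genotype and at 0.958 to 0.962 between genotypes, and 13456 to 14901 probes were detected on each array (detection p-value below 0.01). Of 10 further ES cell markers, 9 were tested on their brightest probe, where 8 did not pass and *Tfcp2l1* was lower (log2 fold change -0.61), and *Fbxo15* passed as lower on a dimmer probe (-0.46). Of 8 extra-embryonic endoderm markers, 2 had a probe named in the annotation, and only *Dab2* had a tested one (1.10, adjusted p = 0.0586, limma). *Gata4*, *Gata6* and *Sox17* had no named probe, so their levels were not read. Of 7 fibroblast markers only *Twist1* had a named probe, which did not pass (0.29). Of 6 trophectoderm markers 3 had a named probe, all tested, and 1 was lower. Of 6 mesoderm markers only *Gsc* had a named probe, which was lower (-1.01). With so few markers read, these lists do not show whether such cells were present. *Eif2s3y*, a Y-linked gene, was above background on all 3 null arrays and on 0 of 3 wild-type arrays. *Uty*, also Y-linked, was detected on all 3 arrays of both genotypes and did not pass (0.31, adjusted p = 0.132, limma). Its deposited signals were dim, at 78.54 to 128.8 against array backgrounds of 46.6 to 62.8. Of 270 tested X-linked genes, 36 were higher and 28 lower on their brightest probe, against 6.69% and 8.4% of all genes. Their median log2 fold change was 0.12, against 0.02 over all genes. An effect of sex or Y content, if the samples differ in it, cannot be told apart from that of the genotype. The part of the *Eif2s3y* difference in the results on the core genes was not tested. In bulk RNA, a change in the number of cells of a type and a change of RNA per cell cannot be told apart.

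*Utf1*, *Pou5f1* and *Sox2* were higher in null cells on 1 probe each, and no core gene passed as lower. These 3 of 17 tested probes (17.6%) had an adjusted p under 0.01 (limma), 0 passed as lower and 14 did not pass. The count of 3 was 1 without null replicate 2 or without wild-type replicate 3, and 7 in the authors' processed values or with no background correction. In those alternatives, in the same order, 3.29%, 3.85%, 7.03% and 7.94% of all probes fitted were higher. Over all tested probes in the reported fit, 6.19% were higher and 7.56% lower, 13.8% in either direction. By gene, with the brightest probe taken, 2 of 9 members passed (*Utf1* and *Sox2*), against 6.69% of 8343 genes higher and 8.4% lower. The 3 null arrays all exceeded the 3 wild-type arrays for 7 of 17 member probes (41.2%), against 22.8% of all tested probes, and all lay below them for 0, against 19.5%. Probes of a gene are not independent, and 3 of these 7 belong to *Dppa4*. The median log2 fold change was 0.30 over the member probes and 0.03 over all tested probes, and the member median was 0.17 in the authors' processed values.

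**Figure D1:**
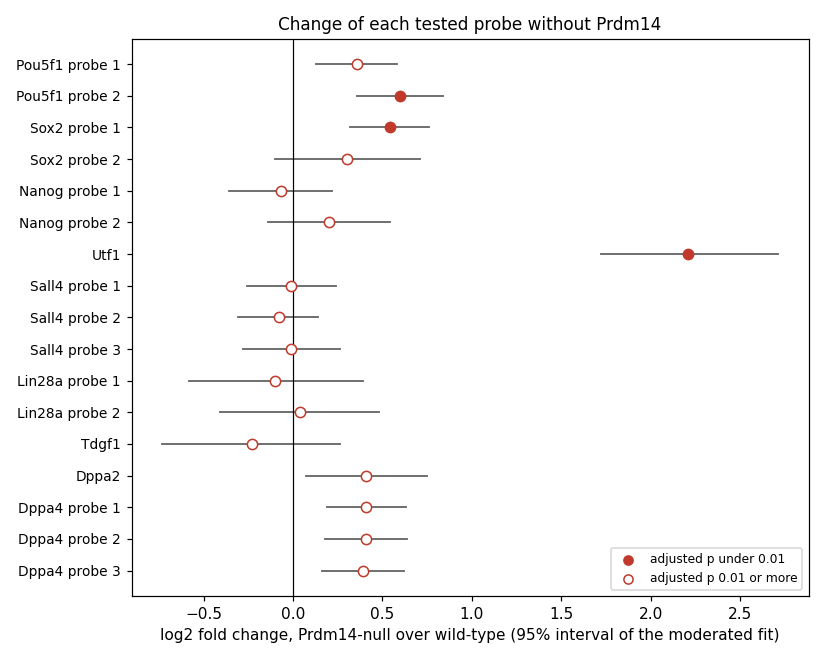
Log2 fold change of each tested probe of the core genes (x axis, Prdm14-null over wild-type) with its 95% interval, one probe per line. Filled points passed an adjusted p under 0.01; Utf1 stands apart at 2.21, and 4 probes of Dppa2 and Dppa4 lie at 0.39 to 0.41 without passing.

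*Utf1* showed the largest change of the 9 genes. Its single probe had normalized log2 signals of 9.33, 9.58 and 9.31 on the null arrays, against 7.74, 6.77 and 7.08 on the wild-type arrays. The groups did not overlap, and the wild-type arrays were the more spread. The mean was 9.41 ± 0.15 in null cells and 7.20 ± 0.49 in wild-type cells (SD, n = 3 each), a log2 fold change of 2.21 (SE 0.22, 95% interval 1.72 to 2.71), or 4.63-fold, at an adjusted p of 0.000143 (limma). It ranked 22 of 14436 from the top by fold change. The deposited, not normalized signals were 801.4, 821.7 and 655.5 on the null arrays, against 183.6, 168.7 and 227.6 on the wild-type arrays, so that even the dimmest array stood at 2.76 times its background. The size of the change depended on the background correction: it was 1.57 in the authors' processed values and 1.82 with no background correction, and it passed in all alternatives run.

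*Pou5f1*, which encodes OCT4, was read by 2 bright probes, numbered here and below by their mean signal. Probe 2 had 13.32, 13.19 and 13.03 on the null arrays, against 12.61, 12.58 and 12.55 on the wild-type arrays, without overlap. Its log2 fold change was 0.60 (SE 0.10, 1.52-fold, adjusted p = 0.00321, limma). Probe 1 had 13.10, 13.08 and 13.03 on the null arrays, against 12.82, 12.60 and 12.73 on the wild-type arrays, again without overlap, and its log2 fold change of 0.36 (SE 0.10) missed the threshold at an adjusted p of 0.028. The changes of the 2 probes differed by -0.25 (SE 0.12, adjusted p = 0.401), so that a disagreement between them was not resolved. The mean of the 2 probes passed, at 0.48 with an adjusted p of 0.00462 (limma). The pass of probe 2 needed all samples in most cases: the adjusted p was 0.0107 without null replicate 1, 0.0164 without null replicate 2, 0.0131 without wild-type replicate 2 and 0.0154 without wild-type replicate 3.

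*Sox2*, the DNA-binding partner of OCT4, was also higher on 1 of its 2 probes. Probe 1 had 9.95, 10.02 and 10.14 on the null arrays, against 9.46, 9.58 and 9.45 on the wild-type arrays. The groups did not overlap, with a log2 fold change of 0.54 (SE 0.10, 1.45-fold, adjusted p = 0.00421, limma). The dim probe 2 had 6.94, 6.90 and 6.34 on the null arrays, against 6.32, 6.68 and 6.28 on the wild-type arrays. Null replicate 3 fell among the wild-type values here, and the log2 fold change of 0.30 (95% interval -0.10 to 0.71) did not pass. The pass of probe 1 was lost without null replicate 2 (adjusted p = 0.0189), null replicate 3 (0.0178), wild-type replicate 1 (0.0134) or wild-type replicate 3 (0.0201). The mean of the 2 *Sox2* probes did not pass, at 0.42 with an adjusted p of 0.0202 (limma).

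*Nanog*, the homeodomain factor of the circuit, did not pass on either probe. Probe 1 had 12.39, 12.17 and 11.95 on the null arrays, against 12.16, 12.35 and 12.22 on the wild-type arrays, with null replicate 1 highest and null replicate 3 lowest of the 6 arrays. Probe 2 had 11.98, 11.88 and 11.69 on the null arrays, against 11.40, 11.59 and 11.95 on the wild-type arrays. The groups overlapped on both. The log2 fold changes were -0.07 (95% interval -0.36 to 0.22) and 0.20 (-0.14 to 0.54), and they differed by -0.28 (SE 0.16, adjusted p = 0.485, limma).

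**Figure D2:**
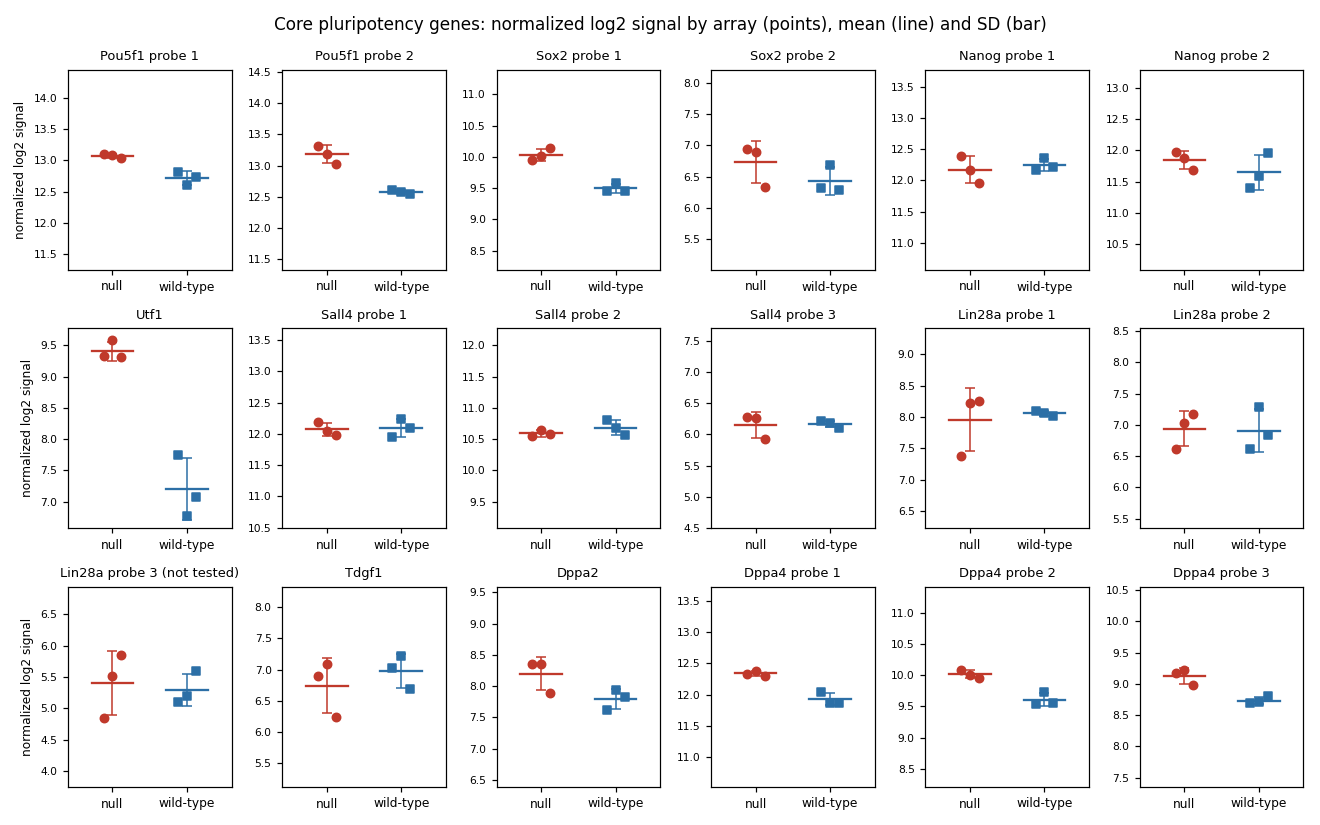
Normalized log2 signal (y axis) of each probe of the 9 core genes on the 3 Prdm14-null arrays (circles) and the 3 wild-type arrays (squares), with mean and SD; each panel spans its own range of levels. Utf1 separates widely, Pou5f1 and Dppa4 separate narrowly, and Nanog, Sall4, Lin28a and Tdgf1 overlap.

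*Sall4*, a zinc finger repressor that works with OCT4 and NANOG, did not pass on any of 3 probes. Probe 1 had 12.19, 12.05 and 11.98 on the null arrays, against 11.95, 12.23 and 12.09 on the wild-type arrays, and its log2 fold change was -0.01. The changes were -0.08 on probe 2 and -0.01 on probe 3, and the 95% intervals of the 3 probes together spanned -0.31 to 0.26. The platform annotation ties probe 1 to another RefSeq transcript record than probes 2 and 3, and the differences between the 3 changes were 0.07 at most.

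*Lin28a*, the let-7 antagonist, did not pass on either tested probe. Probe 1 had 7.38, 8.23 and 8.26 on the null arrays, against 8.09, 8.06 and 8.02 on the wild-type arrays. Null replicate 1 alone was low, and the SD was 0.50 in null cells and 0.03 in wild-type cells. Probe 2 had 6.62, 7.03 and 7.17 on the null arrays, against 6.61, 7.28 and 6.83 on the wild-type arrays. The log2 fold changes were -0.10 (95% interval -0.58 to 0.39) and 0.04 (-0.41 to 0.48). Probe 3 was not tested, being above background on 0 null arrays and 1 wild-type array.

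*Tdgf1*, the NODAL co-receptor, had 6.90, 7.09 and 6.24 on the null arrays, against 7.03, 7.21 and 6.69 on the wild-type arrays. The groups overlapped, and the log2 fold change of -0.23 (SE 0.22, 95% interval -0.73 to 0.26) did not pass.

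*Dppa2* and *Dppa4*, which lie next to each other on chromosome 16, had similar sizes of change, and no probe passed in the reported fit. *Dppa4* probe 1 had 12.33, 12.38 and 12.30 on the null arrays, against 12.04, 11.87 and 11.87 on the wild-type arrays, a log2 fold change of 0.41 (SE 0.10, 1.33-fold, adjusted p = 0.0144, limma). Probe 2 had 10.09, 10.01 and 9.96 on the null arrays, against 9.54, 9.73 and 9.56 on the wild-type arrays (0.41, adjusted p = 0.0163), and probe 3 had a change of 0.39 (adjusted p = 0.0223). The genotypes did not overlap on any of the 3 *Dppa4* probes, and the mean of the 3 probes did pass, at 0.40 with an adjusted p of 0.0074. All 3 probes also passed in the authors' processed values (adjusted p 0.00134, 0.0028 and 0.00682, limma) and with no background correction (0.00312, 0.00479 and 0.00915), and none passed with any 1 sample left out. *Dppa2* had 8.36, 8.35 and 7.89 on the null arrays, against 7.62, 7.94 and 7.82 on the wild-type arrays. Here null replicate 3 lay among the wild-type arrays, and the change of 0.41 (95% interval 0.07 to 0.75) had an adjusted p of 0.078.

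Disagreement between probes of a gene was tested as the difference of their changes. None of the 10 pairs within the members passed (adjusted p 0.401 to 0.996), and 1.02% of the 5879 pairs on the array did. With SEs of 0.12 to 0.20, differences of the size seen here could not be resolved, so the probes of a gene are not shown to agree. Saturation was read from the place of each bright probe below the highest signal of its array. *Pou5f1* probe 2 reached 17.5% to 34.9% of the highest signal on its array, with 236 or more probes brighter on every array, *Nanog* probe 1 reached 12.9% to 19.3%, *Sall4* probe 1 reached 11.1% to 16.6% and *Dppa4* probe 1 reached 11.7% to 20%. At the dim end, *Sall4* probe 3 and *Sox2* probe 2 fell to 1.94 and 2.02 times the background on their lowest array.

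**Figure D3:**
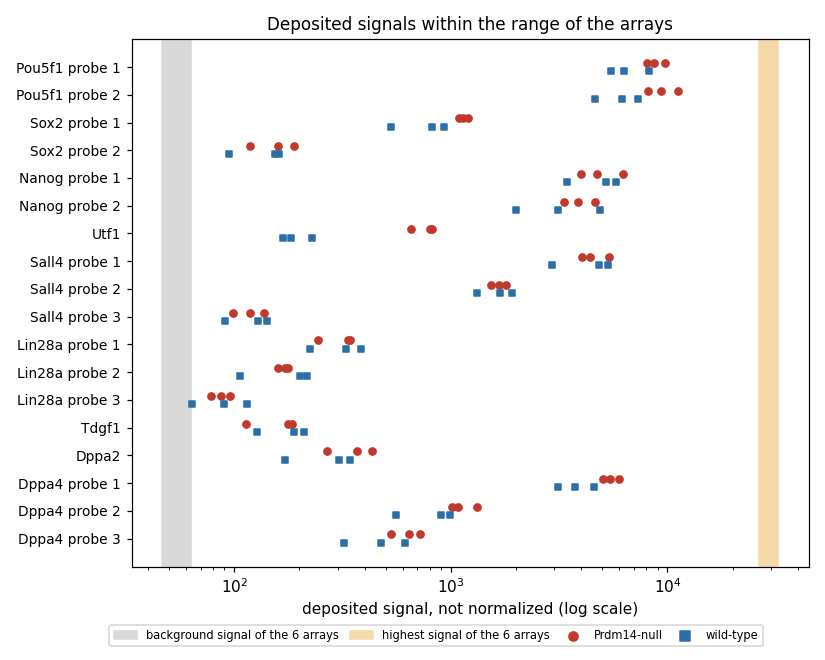
Deposited signal of each probe, not normalized (log x axis), on the Prdm14-null arrays (circles) and wild-type arrays (squares), with the background of the 6 arrays in grey and their highest signals in orange. No probe of the core genes reaches the highest signals, and Lin28a probe 3, not tested, lies next to the background.

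The null samples also differed among themselves. Null replicate 3 was the lowest null array for 13 of the 17 member probes, against 33.5% of all tested probes, and null replicate 1 was lowest for the other 4, on *Sox2* probe 1, *Sall4* probe 2 and both *Lin28a* probes. The median SD of the member probes was 0.15 in null cells and 0.11 in wild-type cells, against 0.12 in null cells and 0.13 in wild-type cells over all tested probes. By probe, the SD was wider in null cells for 9 of the 17 member probes (52.9%), against 47% of all tested probes. With the arrays set to each probe's own mean, the gene whose pattern over the 6 arrays lay nearest to *Utf1* was *Col4a1* (root mean square distance 0.147 on the log2 scale), then *Enox1* (0.191). The nearest to *Pou5f1* were *Taf11* (0.0226) and *Thoc7* (0.024), and to *Dppa4* *Bcl2l13* (0.0193) and *Dctn2* (0.0297). Genes with provisional names were left out. The distance includes the genotype difference, so these nearest genes carried similar changes (*Col4a1* 2.30, *Taf11* 0.37). For scale, the median distance over the genes kept was 0.237 for *Pou5f1* and 1.14 for *Utf1*, which a nearest gene falls below by definition.

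Genes of the same families and pathways were taken from lists and read on their brightest probe. Over all genes the median was 0.02, and 6.69% were higher and 8.4% lower. Listed genes without a named or tested probe are not covered. Of 14 SOX family genes, 5 were tested and 2 were higher, *Sox11* (log2 fold change 1.35, adjusted p = 0.00014, limma) and *Sox15* (0.72, adjusted p = 0.000783), with 0 lower and a median of 0.71. The 3 tested genes of the POU list did not pass (median -0.20). In the SALL family, *Sall3* was higher (0.84, adjusted p = 0.00318) and *Sall1* had -0.36 on its brightest probe, while its dimmer probe passed as lower (-0.55, adjusted p = 0.00637). Of the other DPPA genes *Dppa3* was lower (-1.02, adjusted p = 0.00167) while *Dppa5a* had -0.05. None of 10 tested genes in the list for LIN28 and let-7 passed on its brightest probe (median -0.08), although dimmer probes of *Drosha* (-0.58) and *Igf2bp3* (-0.42) did. Around the co-receptor Cripto, the ligand *Nodal* was higher (0.56, adjusted p = 0.00521), the signal transducer *Smad3* was lower (-1.21, adjusted p = 0.000412) and 7 of 9 did not pass (median 0.16). Among 5 targets of the OCT4-SOX2 element, *Lefty1*, an antagonist of NODAL, was higher (1.91, adjusted p = 0.00361) and 4 did not pass on their brightest probe (median 0.13). One of these, *Fbxo15*, had -0.45 on that probe (adjusted p = 0.0165) and passed as lower on its dimmer probe (-0.46, adjusted p = 0.00837). Among 17 tested partners of OCT4 and NANOG, *Mta3*, a NuRD subunit, was higher (0.85, adjusted p = 0.000523) and 16 did not pass (median 0.11).

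**Figure D4:**
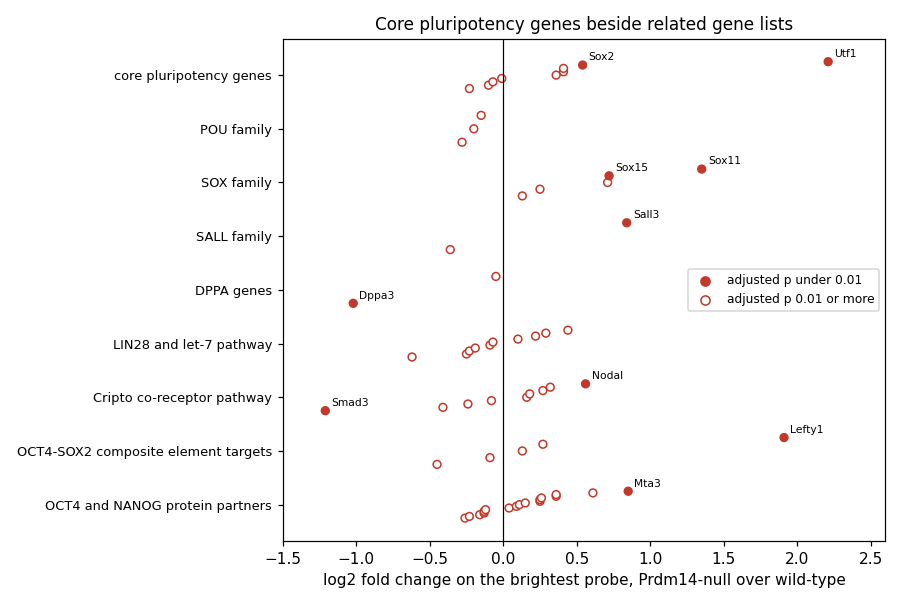
Log2 fold change on the brightest probe (x axis, Prdm14-null over wild-type) of the core genes (top line) and of each related list, 1 point per gene. Filled points passed an adjusted p under 0.01; Dppa3 and Smad3 are the 2 lower ones, and the core genes have none on the lower side.

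Of 6 markers of the primed epiblast, 5 were tested and 2 were higher, *Otx2* and *Dnmt3b* (0.95), against 6.69% of all genes by brightest probe. *Otx2* was detected on 3 null arrays and 1 wild-type array, so its change of 2.99 is set against signals near the background, and it was 1.47 in the processed values. *Pou3f1* (-0.28), *Zic2* (0.59, adjusted p = 0.0981, limma) and *Cldn6* (0.86, adjusted p = 0.0126) did not pass. The summed level of the 5 genes, most of it from *Dnmt3b*, was 9730 to 12600 in null cells, against 5580 to 6280 in wild-type cells. The summed level of the ES cell markers outside the members was 52300 to 53700 in null cells, against 57200 to 62100 in wild-type cells. *Dppa5a* (-0.05) was the brightest of these 9 markers, their median change was -0.05, and 8 did not pass on their brightest probe. The most negative changes were those of *Tfcp2l1* (-0.61) and *Fbxo15* (-0.45). Both were bright, with mean log2 signals of 13.23 and 12.56 in wild-type cells, so the sum does not stand for each marker. The part of the epiblast and ES cell markers in the changes of *Utf1*, *Pou5f1* and *Sox2* was not tested.

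**Figure D5:**
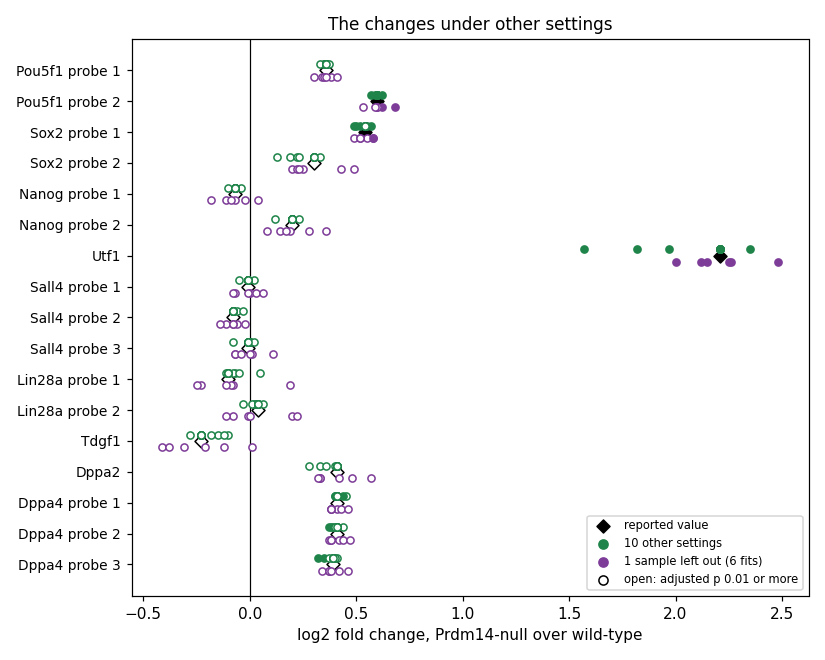
Log2 fold change of each member probe (x axis) as reported (diamonds), under 10 other settings (upper points) and with each of the 6 samples left out (lower points); open symbols had an adjusted p of 0.01 or more. Utf1 passes throughout, between 1.57 and 2.48, and most probes of Nanog, Sall4, Lin28a and Tdgf1 fall on both sides of 0.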

How the data were processed

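The labels gave each sample's genotype and replicate number. The authors deposited signal intensities of 45281 probes per array, not normalized, with a detection p-value for each, and the authors also deposited processed values on a log2-like scale for 15961 probes. The submitters' notes name lumi, with no version or settings given in the sources used here.

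In R 4.3.3 with limma 3.58.1, neqc fitted a normal-exponential background from the detection p-values, added an offset of 16, applied quantile normalization and took log2. A probe was tested if 3 or more of the 6 arrays detected it (p-value below 0.01), by lmFit and eBayes with genotype as the term. P-values were adjusted by Benjamini-Hochberg over all 14436 tested probes, and the threshold was 0.01, as in the study. The brightest probe stood for a gene. Probes were named by the platform annotation, with symbols brought up to GRCm38.p6 by gene identifier. The number of arrays limits the precision. On simulated data with 50 planted changes of each size, the fit recovered 14% of log2 changes of 0.5, 68% of 1 and 90% of 2. For differences between probes of a gene it recovered 0% at 0.5 and 60% at 1. Far fewer changes were planted than passed in the data, so these shares need not carry over.

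The members and gene lists were chosen with earlier results of these data known. The genes named are the members, the nearest genes in pattern, and from each list those that passed on their brightest probe, with a few others added after their values were seen. Alternatives covered the background correction, offset, scaling, processed values, probe filter, variance model, array weights, replicate block, threshold, averaging of probes and each sample left out.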

Additional observations from a re-analysis of the deposited data

How the results depend on the processing

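The count of member probes higher in null cells, 3 as reported, was 7 with no background correction, 5 with an offset of 50, 7 in the authors' processed values, 6 with eBayes trend, 7 with eBayes trend and robust, and 7 at an adjusted p under 0.05. In the same order, 7.94%, 7.54%, 7.03%, 8.19%, 8.46% and 12.8% of all probes fitted were higher, against 6.19% as reported. Leaving out 1 sample gave 1 to 2 member probes, with 1 without null replicate 2 or wild-type replicate 3. In these fits 3.29% to 4.84% of all tested probes were higher. No member probe was lower under any of these. Over all probes, the 894 higher and 1092 lower became 1851 and 1818 at an adjusted p under 0.05, and 475 to 699 and 713 to 937 with 1 sample left out. *Utf1* passed in all 16 alternatives (adjusted p 1.2e-06 to 0.00366). *Pou5f1* probe 1 passed in 4 of 16, at 0.00353 in the processed values, and *Dppa4* probes 1, 2 and 3 passed in 6, 5 and 3 of 16. Changes near 0 turned sign: *Sall4* probe 1 was 0.02 and *Lin28a* probe 2 was -0.03 with median scaling, *Sall4* probe 3 was 0.02 and *Lin28a* probe 1 was 0.05 with array weights, and *Nanog* was 0.07 as the mean of its probes. With 1 sample left out, *Nanog* probe 1 ranged from -0.18 to 0.04, *Sall4* probe 1 from -0.08 to 0.06, *Sall4* probe 3 from -0.07 to 0.11, *Lin28a* probe 1 from -0.25 to 0.19, *Lin28a* probe 2 from -0.11 to 0.22 and *Tdgf1* from -0.41 to 0.01. The cause of these differences was not tested. Samples share only a replicate number: same-numbered samples had deviations that correlated at -0.0269, -0.0638 and -0.125, and 0 of 3 numbers correlated best with their own. With a replicate block, 2 member probes were higher, as *Sox2* probe 1 had an adjusted p of 0.0135, and 663 probes were higher and 925 lower over all. With 3 samples per genotype small changes are hard to detect, and the dim probes of *Sox2*, *Sall4*, *Lin28a* and *Tdgf1* are limited by their signal over background.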
